A study of Mus musculus with 3 samples.

Results

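The miR-26 family was followed in small RNA libraries from hearts of wild-type C57BL/6 mice at postnatal day 1 (P1), day 7 (P7) and day 28 (P28). The family comprised 2 mature microRNA (miRNA) accessions of the 1900 in the count table, MIMAT0000533 (miR-26a-5p) and MIMAT0000534 (miR-26b-5p), and 3 of its 2049 rows. They were chosen by accession, not by their counts. No transgene, deletion or treatment is stated for these mice. Each age was represented by 1 library, so no difference between ages has a replicate check. The labels do not give the number or sex of the animals behind a library. The study describes the tissue as cardiac ventricles, whereas the labels say hearts.

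A miRNA guides an Argonaute protein to messenger RNAs that pair with its seed, the stretch from base 2 to base 8, and thereby lowers their stability or translation. The miR-26 genes lie inside genes for small phosphatases of the CTDSP family, which act on RNA polymerase II and on the retinoblastoma protein. In other settings miR-26a is known to restrain cell division, and Ezh2, the catalytic subunit of the polycomb repressive complex, is among its established targets. The libraries were made to look for miRNAs that take part in the growth of the heart after birth.

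The mature sequences are shown because the seed places both miRNAs in the same family and the bases after it tell their reads apart. They are the RefSeq sequences (build GRCm38.p6), written 5′ to 3′ with the seed in capitals.
miR-26a-5p: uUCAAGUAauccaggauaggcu
miR-26b-5p: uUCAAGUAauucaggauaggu

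Over the 21 positions that both have, 19 bases were identical. The differences, counted from 1 at the 5′ end with the base of miR-26a-5p first, were C11U and C21U, and miR-26a-5p was 1 base longer (22 against 21). No other mature miRNA among the 1679 names in the RefSeq table had the same seed.

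The hairpin precursors are shown because miR-26a-5p comes from 2 of them and miR-26b-5p from 1. The 5p arm is in capitals.
Mir26a-1: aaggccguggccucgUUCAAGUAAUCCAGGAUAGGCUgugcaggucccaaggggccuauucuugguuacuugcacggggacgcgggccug
Mir26a-2: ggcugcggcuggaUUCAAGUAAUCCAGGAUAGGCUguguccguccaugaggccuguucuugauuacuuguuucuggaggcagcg
Mir26b: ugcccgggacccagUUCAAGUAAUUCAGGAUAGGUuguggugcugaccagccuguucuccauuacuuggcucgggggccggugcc

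Mir26a-1 lies at chr9:119031796-119031885 on the plus strand, in an intron of Ctdspl (intron 4 or 5, depending on the coding transcript). Mir26a-2 lies at chr10:126995530-126995613 on the plus strand, in intron 5 of a coding transcript of Ctdsp2. Of the 3 Ctdsp2 transcripts over that hairpin, 2 have an exon that overlaps it, by at most 1 base. Mir26b lies at chr1:74394310-74394394 on the plus strand, in intron 4 of Ctdsp1. The host genes are those of GENCODE M21, whose build, GRCm38, is the mm10 assembly named by the submitters. The 5p arms of the 2 miR-26a hairpins were identical over all 22 bases. Outside the arm, 0 bases were shared before it and 3 after it, so a read without flanking bases could not be placed at either gene.

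The miR-26a-5p accession accordingly had 2 rows, and these held almost the same counts. The rows held 12240 and 12226 reads in the P1 library, 11574 and 11406 in the P7 library, and 21262 and 21303 in the P28 library. The first row thus took 50.03% of the miR-26a-5p reads at P1 (95% Wilson interval 49.4 to 50.7). Its share was 50.37% in the P7 library (49.7 to 51.0) and 49.95% in the P28 library (49.5 to 50.4). Each interval included 50%, and the 3 intervals overlapped. Among the 23 accessions with exactly 2 rows that averaged 100 CPM or more (reads per 1000000 reads of the library), miR-26a-5p was the closest to an even division, at most 0.366 percentage points away in any library. For the other 22 this largest distance ranged from 0.648 to 41.5 points, with a median of 18.3. The distances were not adjusted for read number, and a share of fewer reads varies more by counting alone. Both rows of miR-26a-5p stand for the same mature sequence. They are therefore summed below, and nothing is assigned to Mir26a-1 or Mir26a-2 separately. How reads that fit both genes were counted is not stated. If each such read entered both rows, the summed read count would be 2-fold too high and its counting intervals too narrow. The intervals of the row shares, which treat each read as placed in 1 row, would then not apply. Other accessions with several rows would then also add repeated reads to the library totals. The effect on CPM and on the ratios between ages was not determined.

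miR-26a-5p was the abundant member. In the P1, P7 and P28 libraries it had 24466, 22980 and 42565 reads of 1944237, 2465680 and 2842526 counts. Its level was 12584 CPM in the P1 heart library (95% Wilson interval 12428 to 12742). It was 9320 CPM in the P7 library (9201 to 9441) and 14974 CPM in the P28 library (14834 to 15116). The level was thus lowest at P7 and highest at P28, and the 3 intervals, which cover counting error only, did not overlap. Among the 1900 mature accessions its ranks were 14 (P1), 16 (P7) and 10 (P28). With only its first row counted, and the rows of all other accessions still summed, the ranks were 19, 21 and 14. Some accessions in the table hold the same counts as another. Among those with 300 reads or more, 10 pairs matched within 1% in every library, 7 of them exactly, and neither member was in a pair. With the later accession of each pair left out, the ranks of miR-26a-5p were 13, 15 and 9.

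miR-26b-5p, which differs from it at the bases given above, followed a like course at a lower level. In the P1, P7 and P28 libraries it had 2380, 1957 and 3473 reads. This corresponded to 1224 CPM in the P1 library (1176 to 1274), 794 CPM in the P7 library (759 to 830) and 1222 CPM in the P28 library (1182 to 1263). The P7 level lay below both others, whereas the intervals at P1 and P28 overlapped almost completely. Its ranks were 49, 63 and 39, or 47, 59 and 36 without the matching accessions. In RNA from cardiac tissue, fewer cells of a type and less of a miRNA per cell cannot be told apart. Levels of different miRNAs in such libraries also depend on how well each is ligated and amplified, which was not tested.

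**Figure D1:**
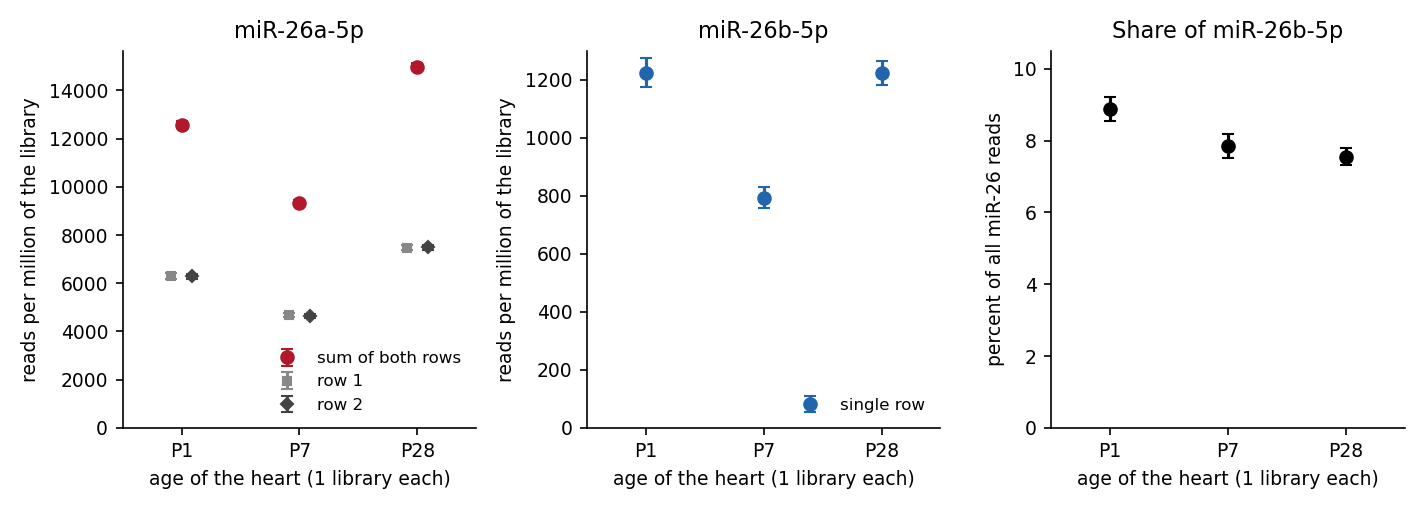
CPM of miR-26a-5p (left panel) and miR-26b-5p (middle panel) and the percentage of miR-26 reads that were miR-26b-5p (right panel) at P1, P7 and P28, 1 library per age, with 95% Wilson intervals for counting error. Both miRNAs are lowest at P7 (9320 and 794 CPM), the rows of miR-26a-5p overlie each other, and the share of miR-26b-5p is highest at P1 (8.87%).

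The family together made up 1.38% of the P1 library (1.36 to 1.40), 1.01% of the P7 library (0.999 to 1.02) and 1.62% of the P28 library (1.61 to 1.63). The plot of level against rank places miR-26a-5p among the abundant miRNAs of each library. With both rows summed it stood between 10.3 and 12.3 times above miR-26b-5p. With only its first row counted, the factors were 5.1, 5.9 and 6.1 at P1, P7 and P28.

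**Figure D2:**
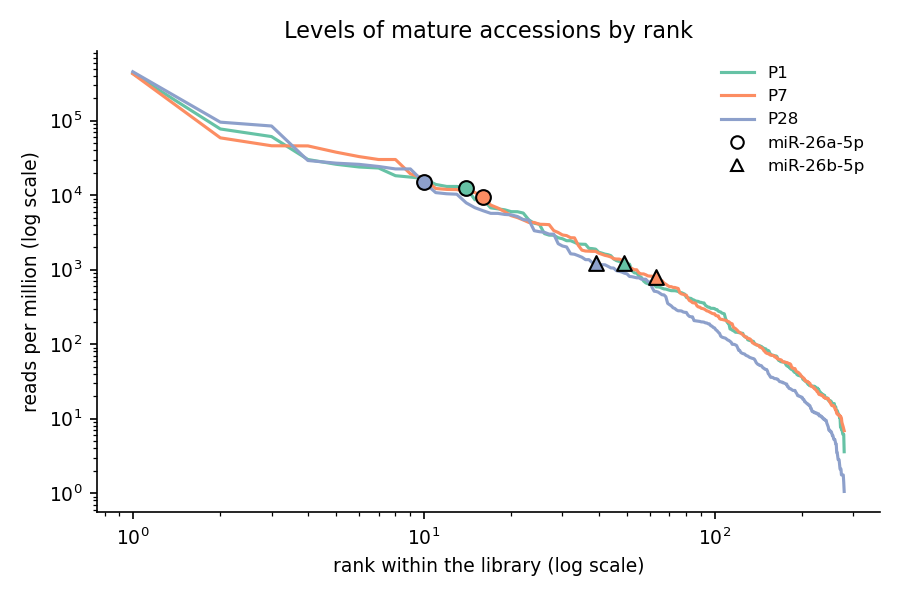
CPM (log scale) against rank within the library (log scale) for the 279 mature accessions that averaged 10 CPM or more, 1 line per age. Circles mark miR-26a-5p (ranks 14, 16 and 10 at P1, P7 and P28) and triangles mark miR-26b-5p (ranks 49, 63 and 39), each in the colour of its library.

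The first comparison asked how the family differed between P1 and P7. The log2 ratio of P7 against P1, with a pseudocount of 0.5 reads, was -0.43 for miR-26a-5p (95% Clopper-Pearson interval -0.46 to -0.41), a level 0.741 times that at P1. For miR-26b-5p it was -0.63 (-0.71 to -0.54), or 0.648 times. Both were thus lower at P7, by less than 2-fold. A difference of at least 2-fold in either direction was reached by 0 of the 2 miRNAs, against 22.6% of the 279 mature accessions that averaged 10 CPM or more. The median accession had a log2 ratio of 0.029, and 80 accessions lay below miR-26a-5p and 60 below miR-26b-5p, so both stood in the lower part of the distribution but not at its edge.

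Between P7 and P28 both miRNAs were higher at the later age. The log2 ratio of P28 against P7 was 0.68 for miR-26a-5p (0.66 to 0.71), a 1.61-fold higher level, and 0.62 for miR-26b-5p (0.54 to 0.70), a 1.54-fold higher level. Again 0 of 2 differed by at least 2-fold, against 45.5% of the accessions, of which 8 were higher and 119 lower at P28 by library totals. These numbers were 28 and 70 under TMM scaling and 32 and 61 with DESeq2 size factors, which both scale libraries so that the typical entry changes little. The median accession stood at -0.79. Relative to that median, miR-26a-5p was higher by 1.47 and miR-26b-5p by 1.41 on the log2 scale. Only 16 of the 279 accessions had a higher ratio than miR-26a-5p, and 20 had a higher ratio than miR-26b-5p.

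Across the whole interval the members parted slightly. At P28 against P1, the log2 ratio was 0.25 for miR-26a-5p (0.23 to 0.27) and -0.0028 for miR-26b-5p (-0.078 to 0.073). The level of miR-26a-5p at P28 was 1.19 times that at P1, while the interval for miR-26b-5p included no difference. Here too 0 of 2 reached 2-fold, against 56.3% of the accessions. The median accession was at -0.74, which was 0.99 below miR-26a-5p and 0.73 below miR-26b-5p.

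The size of the later differences depended on how the libraries were scaled, as the plot of log2 ratios by scaling shows. With TMM scaling the log2 ratio of P28 against P7 was 1.24 for miR-26a-5p and 1.18 for miR-26b-5p, and with size factors from DESeq2 it was 1.33 and 1.27. Both miRNAs were then at least 2-fold higher, as were 10% of the 279 accessions under TMM and 11.5% under size factors. With the 10 most abundant rows left out of the totals, the ratios were 1.03 and 0.96. Then 1 of 2 was at least 2-fold higher, against 6.09% of the accessions. At P28 against P1, TMM gave 0.88 for miR-26a-5p and 0.62 for miR-26b-5p, so the near equality of miR-26b-5p at these ages held by library totals and not under TMM. Each scaling moves all accessions of a comparison by about the same amount. By construction, the distances from the median given above therefore stay the same under all of them. They do depend on the filter. Over the 134 accessions that averaged 100 CPM or more, miR-26a-5p and miR-26b-5p were 1.21 and 1.14 above the median at P28 against P7. At P28 against P1 they were 0.61 and 0.36 above it. The lower level at P7 than at P1 and P28 held for both miRNAs under the library total and the 4 other scalings.

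**Figure D3:**
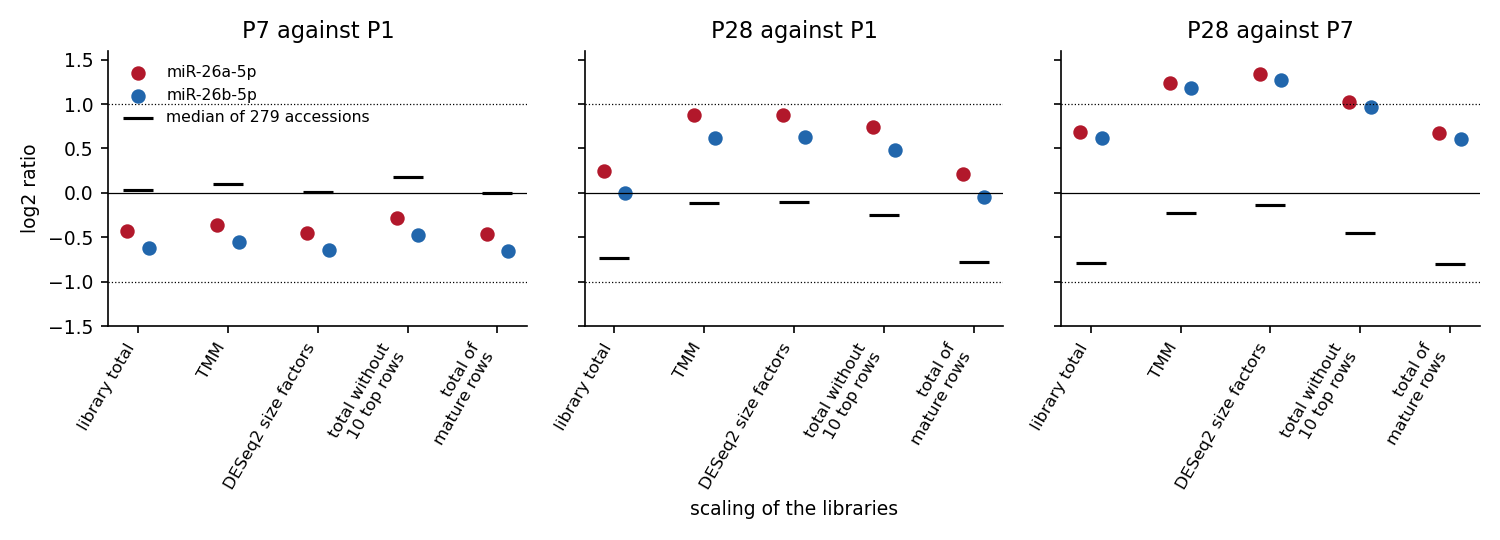
Log2 ratios of miR-26a-5p and miR-26b-5p under 5 scalings of the libraries, 1 panel per comparison of ages, with the median of the 279 accessions as a bar and dotted lines at a 2-fold difference. Both members lie below the median and below 0 at P7 against P1, and above the median and above 0 at P28 against P7, whichever scaling is used.

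A minimum at P7 was uncommon. Of the 279 accessions, P7 was the lowest library for 25 (8.96%), P1 for 76 and P28 for 178. The 25 became 35 under TMM and 48 under DESeq2 size factors, which is 12.5% and 17.2%. Among the 134 accessions that averaged 100 CPM or more, 14 were lowest at P7. Only 1 other accession, MIMAT0005835, had at least as large a step down to P7 and a step up to P28 as miR-26a-5p, with log2 ratios of -0.75 and 1.06, and the same accession was the only other that did so for miR-26b-5p. Both steps use the P7 library, so a low reading in that library by itself gives a step down and a step up.

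The course of each member was the nearest to that of the other. Likeness was measured as the Euclidean distance between the 2 log2 ratios, P7 against P1 and P28 against P7, over the 3 libraries. Of the 133 other accessions that averaged 100 CPM or more, miR-26b-5p was the closest to miR-26a-5p, and miR-26a-5p the closest to miR-26b-5p, at a distance of 0.20. The median distance was 1.68 from miR-26a-5p and 1.69 from miR-26b-5p. The same held over all 278 other accessions that averaged 10 CPM or more. Above 100 CPM, the next accession after miR-26b-5p was MIMAT0000248, at 0.32 from miR-26a-5p, with 23118, 19352 and 25886 CPM in the P1, P7 and P28 libraries. In the same class the next after miR-26a-5p was MIMAT0000208, at 0.35 from miR-26b-5p, with 818, 567 and 693 CPM. With the lower limit of 10 CPM, 1 sparse accession, with 62, 57 and 89 reads, came between, at 0.25 from either member. These accessions carry no names in the table and none was assigned. All distances share the same 3 libraries and are given as a description. The mature sequences of both members agree at 19 of 21 positions, and whether reads of either were counted under the other was not tested.

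**Figure D4:**
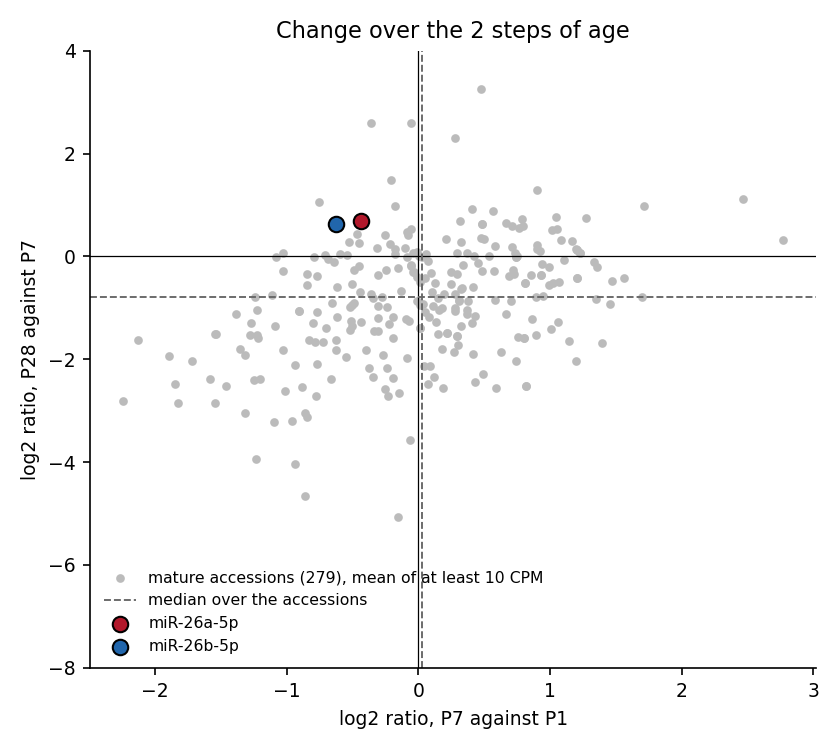
Log2 ratio of P28 against P7 plotted against that of P7 against P1 for the same 279 mature accessions, with dashed lines at the medians. miR-26a-5p (-0.43 and 0.68) and miR-26b-5p (-0.63 and 0.62) lie side by side in the sparsely filled upper left part, where a miRNA is lowest at P7.

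The balance within the family does not depend on the scaling of the libraries, since both counts come from the same library. At P1, miR-26b-5p made up 8.87% of the miR-26 reads (95% Wilson interval 8.53 to 9.21). It made up 7.85% in the P7 library (7.52 to 8.19) and 7.54% in the P28 library (7.31 to 7.79). For each read of miR-26b-5p there were 10.3, 11.7 and 12.3 reads of miR-26a-5p at P1, P7 and P28. The share was higher at P1 than at the later ages, whose intervals overlapped. The odds ratio of miR-26b-5p to miR-26a-5p reads was 0.875 between P7 and P1 (exact 95% interval 0.822 to 0.932) and 0.839 between P28 and P1 (0.794 to 0.886). Between P28 and P7 it was 0.958 (0.904 to 1.02), an interval that includes no difference. The shift between P1 and P7 was -0.19 on the log2 scale, and that between P1 and P28 was -0.25. The middle 50% of the 279 accessions spanned 1.10 on the log2 scale for P7 against P1 and 2.19 for P28 against P1. Those spans are of ratios of single accessions, whereas the shifts compare 2 members with each other, so the measures are unlike. The intervals of the shares and odds ratios compare 3 libraries and cover counting error. A difference between hearts of the same age could therefore be as large. With a single row of miR-26a-5p counted, the share was 16.3% at P1, 14.5% at P7 by the first row and 14.6% by the second, and 14.0% at P28, in the same order.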

How the data were processed

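Small RNA libraries were prepared with a NEBNext kit, per the labels, with 1 library per age. The submitters' processing notes name mm10, bcl2fastq and TopHat without versions. The treatment of reads that fit several places, the use of strand and the miRBase release are not given in the sources used here. The authors deposited unnormalized read counts for 2035 mature and 14 stem-loop rows. Of the accessions compared that had 300 reads or more, 10 repeat the counts of another within 1%, and they were kept except where stated. Sparser accessions were not searched, and some of those compared also hold the same counts as another. Columns were matched to ages by the age code in their names.

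Counts were divided by the column total (CPM, reads per 1000000). Rows of a mature accession were summed, and the 279 accessions averaging 10 CPM or more were compared. With 1 library per age the quasi-likelihood test of edgeR could not be fitted and no p-value is given. A difference was called when it reached 2-fold. The intervals (95%) cover counting error only, and no molecular identifiers are stated. A count of 3 equals 1.54, 1.22 and 1.06 CPM in the P1, P7 and P28 libraries. The log2 ratios and their intervals were first tested on simulated counts, and the other steps were not. Those counts had counting error only, and the changed library was scaled by its known size. Shifts that come from scaling by totals were so not tested.

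Named were the members and, of the 5 accessions nearest to each, the first other one, as accessions carry no names. MIMAT0005835, also among the 5 nearest to miR-26b-5p, was named after its values were seen. The planned values for the 3p arms, for the let-7, miR-30 and miR-29 families and for cell type markers are therefore not given, and the heart label was not checked against marker miRNAs. The members, lists and tests were chosen with earlier results of these data known. Alternatives were other scalings (edgeR 4.0.16, DESeq2 1.42.0), pseudocounts, filters and single rows. Software was Python 3.11.15 with scipy 1.17.1, numpy 2.4.6, pandas 2.3.3 and matplotlib 3.10.9, and R 4.3.3.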

Additional observations from a re-analysis of the deposited data

How the results depend on the processing

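Values are given for miR-26a-5p, miR-26b-5p and their sum, in that order. At P28 against P1 the log2 ratios were 0.88, 0.62 and 0.85 under TMM, 0.88, 0.63 and 0.86 under DESeq2 size factors, and 0.74, 0.48 and 0.72 without the 10 most abundant rows. At P28 against P7 they were 1.24, 1.18 and 1.24 under TMM, 1.33, 1.27 and 1.33 under size factors, and 1.03, 0.96 and 1.02 without the 10 rows. At P7 against P1 they were -0.29, -0.48 and -0.30 without the 10 rows, and -0.37 for miR-26a-5p and -0.38 for the sum under TMM. With the total of mature rows only, miR-26a-5p was at -0.46 and the sum at -0.48 for P7 against P1, and at 0.21 and 0.19 for P28 against P1. The median of all accessions moved by 0.62 and 0.56 under TMM, by 0.63 and 0.65 under size factors and by 0.49 and 0.34 without the 10 rows, for P28 against P1 and against P7. Without the 10 rows it moved by 0.15 for P7 against P1. Of the 57 log2 ratios under an alternative, 30 stayed within the counting interval of the value by library totals. These include all with a pseudocount of 5 reads, which hardly enters a ratio of such counts. They also include all with 1 row of miR-26a-5p, since its rows held almost the same counts. Neither alternative bears on the scaling of the libraries. The sign changed in 3, all for miR-26b-5p at P28 against P1, where the value by totals is near 0.

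The share of miR-26b-5p with the first or the second row of miR-26a-5p only was 16.28% and 16.29% at P1, 14.5% and 14.6% at P7, and 14.04% and 14.02% at P28, because the other row was left out of the sum. The numbers of accessions that differed at least 2-fold, for P7 against P1, P28 against P1 and P28 against P7, were 63, 157 and 127. They became 138, 287 and 243 with a mean of at least 1 CPM, 31, 65 and 46 with 100 CPM, and 396, 529 and 469 with no filter, which changes how many accessions are compared. The other scalings and the larger pseudocount kept these numbers within 1.5 times, but not their directions. For P28 against P7, 8 higher and 119 lower became 28 and 70 under TMM, 32 and 61 under size factors, and 17 and 90 without the 10 rows. For P28 against P1, 38 and 119 became 69 and 80 under either TMM or size factors, and 60 and 86 without the 10 rows. For P7 against P1, 31 and 32 became 45 and 24 without the 10 rows, and 37 and 28 under TMM. A further alternative, chosen after seeing the data, left out the later accession of each of the 10 matching pairs with 300 reads or more. It gave 60, 151 and 124 of 269 accessions (22.3, 56.1 and 46.1%). Sparser accessions with matching counts remained among the 269. No paired analysis was possible because a single library stands for each age, and leaving out a replicate was impossible for that reason.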
